A study of Mus musculus with 16 samples.

Results

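The 10 lineage Sox genes of groups B, E and F were examined for Jarid2, for Jarid2 dimethylated at the lysine named K116 (Jarid2-K116me2) and for trimethylated lysine 27 of histone H3 (H3K27me3) in mouse embryonic stem cells (ESC) and embryoid bodies (EB). The genes were Sox1 and Sox3 (group B1), Sox14 and Sox21 (group B2), Sox8, Sox9 and Sox10 (group E), and Sox7, Sox17 and Sox18 (group F). A peak was assigned to a gene when it overlapped the gene or lay within 5 kb of it on mm9. By this rule the 10 genes held 12 peaks of the 4992 listed for Jarid2 and 14 of the 4502 listed for Jarid2-K116me2, and no gene was without a peak. Sox2, also of group B1, was not among the 10 and had no peak of either antibody. The 10 genes were chosen with earlier results of these data known.

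The series has 16 samples. Jarid2 and Jarid2-K116me2 were each immunoprecipitated from 1 sample of E14 ESC, a wild-type line grown in serum with LIF. H3K27me3 was profiled in 3 lines, as ESC and as EB at day 8, with 2 libraries for each of the 6 groups. All 3 lines derive from Jarid2 -/- ESC: the knockout itself (KO), the knockout with a Jarid2 transgene on a bacterial artificial chromosome (WT rescue), and the same with that lysine of Jarid2 replaced by alanine (K116A rescue). EB were formed in hanging drops without LIF. The controls of the H3K27me3 comparison are therefore rescued knockout cells with Jarid2 expressed from an integrated transgene, and not the E14 cells in which Jarid2 was mapped.

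Sox genes encode transcription factors with an HMG box, a DNA-binding domain that bends its target. Most lineage Sox genes are silent in ESC and are switched on in one branch of the embryo, and many lie in broad domains of Polycomb repressive complex 2 (PRC2), which deposits H3K27me3. Jarid2 is a DNA-binding cofactor of PRC2 that is abundant in ESC. PRC2 is typically found at CpG-rich gene starts, and H3K27me3 is commonly lost where such a gene becomes active.

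The bases just upstream of 3 gene starts are shown, because these starts differ in CpG content and in the extent of the domain above them. Each is the 200 bases of the mm9 reference that precede the start, on the coding strand, 5′ to 3′, with each CpG in capitals. Sox1 (chr8:12395319-12395518, plus strand) and Sox7 (chr14:64562311-64562510, plus strand) had the most CpG of the 9 genes counted. Sox9 (chr11:112643338-112643537, plus strand) carried the H3K27me3 difference described further on, which passed under some settings only, and had fewer CpG. No annotated exon lies in these 3 windows.
Sox1: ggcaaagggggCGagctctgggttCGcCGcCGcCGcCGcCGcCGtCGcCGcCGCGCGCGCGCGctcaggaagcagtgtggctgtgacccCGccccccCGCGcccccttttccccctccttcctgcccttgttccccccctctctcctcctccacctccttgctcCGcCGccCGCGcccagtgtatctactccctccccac
Sox9: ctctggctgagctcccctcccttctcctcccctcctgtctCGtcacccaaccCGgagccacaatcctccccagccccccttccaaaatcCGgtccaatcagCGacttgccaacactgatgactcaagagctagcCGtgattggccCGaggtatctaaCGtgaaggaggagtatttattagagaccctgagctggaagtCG
Sox7: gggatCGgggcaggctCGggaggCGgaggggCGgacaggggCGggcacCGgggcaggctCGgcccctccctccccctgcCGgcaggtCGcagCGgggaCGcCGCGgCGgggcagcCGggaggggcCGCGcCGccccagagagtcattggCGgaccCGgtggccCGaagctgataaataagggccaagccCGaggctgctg

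The number of CpG in these 200 bases was 23 at Sox1, 22 at Sox7 and 8 at Sox9. Sox8 had 17, Sox14 and Sox21 had 15 each, Sox3 had 13, Sox18 had 11 and Sox17 had 8. The median over 22209 protein-coding genes was 7 (quartiles 2 and 15). At least 10 CpG were present at 7 of these 9 Sox genes and at 42.7% of all genes. Sox9 and Sox17, which had the fewest CpG of the 9 genes and were close to the median of all genes, lay under wide Jarid2 peaks. The Jarid2 peaks over the 10 starts had a median of 4.46 CpG per 100 bp, against 4.49 over all Jarid2 peaks.

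Jarid2 covered the start of each of the 10 genes. A Jarid2 peak lay within 5 kb of all 10, against 18.1% of all genes, and a Jarid2-K116me2 peak lay within 5 kb of all 10, against 16.0%. The start itself was under a Jarid2 peak at 10 genes (11.7% of all genes) and under a Jarid2-K116me2 peak at 10 genes (10.2%). The score of a peak is the log10 of its p-value multiplied by minus 10 and piles up at 3100, so that it does not rank the strongest peaks. It reached 3100 for both antibodies at 8 of the 10 genes. Among all peaks it was 3100 at 719 of 4992 for Jarid2 and at 906 of 4502 for Jarid2-K116me2. With 1 sample per antibody, these values have no replicate error and no difference between the antibodies was tested.

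Group B holds the neural members. Sox1 and Sox3 act as activators in neural progenitors, and Sox14 and Sox21 act as repressors. Sox1 lay under a single Jarid2 peak of 21.34 kb, the 21st widest of 4992, from 13.13 kb upstream to 8.21 kb downstream of the start. Jarid2-K116me2 was called there as 4 peaks, of which 3 lay within 5 kb of the start and were assigned to Sox1. The one over the start was 7.37 kb wide, and 93.5% of the bases of the Jarid2 peak were under the 4 peaks. Sox21 had a Jarid2 peak of 13.98 kb with 3 Jarid2-K116me2 peaks inside it. At Sox14 the Jarid2 peak was 13.28 kb and the Jarid2-K116me2 peak 10.99 kb. Sox3, on chromosome X, had the narrowest domain of the group, with 6.33 kb of Jarid2 and 5.57 kb of Jarid2-K116me2 over the start.

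The E and F groups were split in width. Sox9, which directs cartilage formation and testis development, lay under 9.35 kb of Jarid2 and 6.17 kb of Jarid2-K116me2. Its relatives Sox8 and Sox10, both neural crest factors, had the only start peaks of the 10 genes with a score under 3100. At Sox8 the scores were 448.71 for Jarid2 (1.39 kb) and 519.87 for Jarid2-K116me2 (1.26 kb), and at Sox10 they were 534.81 (2.12 kb) and 304.82 (1.25 kb). Sox17, a factor of the definitive endoderm, had 9.61 kb of Jarid2 and 8.49 kb of Jarid2-K116me2. The other two F genes, Sox7 and Sox18, which act in vessel formation, had 3.44 kb and 2.83 kb of Jarid2. Their Jarid2-K116me2 peaks measured 2.74 kb and 2.6 kb.

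**Figure D1:**
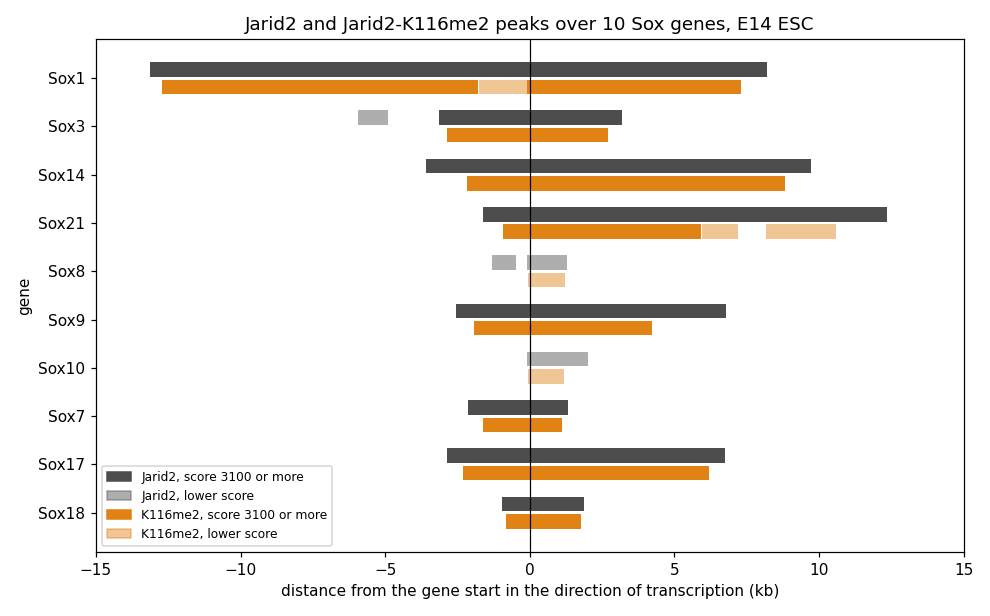
Jarid2 peaks (grey) and Jarid2-K116me2 peaks (orange) around the starts of the 10 Sox genes in E14 ESC, 1 sample per antibody; the x axis is the distance from the gene start in kb along transcription, each bar is 1 peak, and pale bars have a score under 3100. Bars of both antibodies cross the start at each gene, from 21.34 kb of Jarid2 at Sox1 to 1.39 kb at Sox8.

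Every Jarid2-K116me2 peak of these genes lay inside a Jarid2 peak. The reverse did not hold at 2 genes. A weak Jarid2 peak upstream of Sox3 (score 126.39, 1.05 kb) and one upstream of Sox8 (score 121.58, 0.8 kb) had no Jarid2-K116me2 peak. The median width over the 10 starts was 7.84 kb for Jarid2 and 5.87 kb for Jarid2-K116me2, against medians of 1.88 kb and 1.68 kb over all peaks. These sets are unlike, as all peaks include those away from gene starts. The median over the start peaks of all genes was not computed. Other genes share some of these peaks: Gm5607 and AC102525.1 start under the Sox1 peak, Gm14662 under that of Sox3, Gm4675 under that of Sox21 and BC006965 under that of Sox9. A peak there cannot be assigned to the Sox gene alone. Sox1 has no entry in the annotation used, and its start was placed by an exact match of its RefSeq promoter (GRCm38.p6) to mm9, inside the first intron of Gm5607. Its window was therefore 5 kb on each side of that start, without a gene body, unlike the windows of the other genes.

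The H3K27me3 libraries differed in yield before any gene was considered. They listed from 1478 peaks (WT rescue ESC, replicate 1) to 14125 peaks (KO EB, replicate 2). The replicate 1 libraries of ESC were the 3 with fewest peaks, at 3554 for KO, 1478 for WT rescue and 5183 for K116A rescue. WT rescue ESC replicate 1 stood apart, with 3.85% of all genes and 4 of the 10 Sox genes near a peak. The peak lists hold no read numbers. In the read table of the study, WT rescue ESC replicate 1 is not a shallow library but the one with the most reads among the ESC libraries. The study took its peak set for comparing ESC with EB from replicates 2, which it describes as of higher quality. Both replicates were used here. The number of peaks called differed between EB and ESC as well as between lines, and its part in the differences below was not tested. Of 6 pluripotency genes (Pou5f1, Nanog, Klf4, Esrrb, Zfp42 and Tcl1) none had H3K27me3 within 1 kb of its start in ESC. In EB, Klf4 had it in all 6 libraries and Pou5f1 in 1. By the 5 kb rule used for the Sox genes, Esrrb had H3K27me3 in all 12 libraries, over 1.07% to 5.49% of its window. Esrrb also had a peak of both antibodies in E14.

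All 10 Sox genes had an H3K27me3 peak within 5 kb in at least 2 of the 12 libraries, against 36.2% of all genes. Sox1, Sox14, Sox9 and Sox17 had one in all 12 libraries, 4 of 10 genes against 3.46%. The mark was present without Jarid2: both KO ESC libraries had a peak at 8 of the genes, and replicate 2 had one at all 10. The cover, meaning the share of the gene and its 5 kb flanks under H3K27me3 peaks, followed the width of the Jarid2 peak in E14. For Sox1 it was the share of the 5 kb on each side of the start alone, without the gene body. Across the 10 genes Spearman's rho was 0.927 (Pearson's r 0.902) for the mean cover over the 6 ESC libraries and 0.855 (0.844) for that over the 6 EB libraries. Without WT rescue ESC replicate 1 the ESC value was 0.903 (0.886). These genes are not independent replicates and share the same libraries, so the coefficients are descriptive. The windows ran from 10001 bp at Sox1 to 19578 bp at Sox10, and the part of window length in the coefficients was not tested. No coefficient was computed over other genes with Jarid2.

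Sox1, Sox14, Sox21 and Sox17 had the broadest H3K27me3. Sox1 was covered over 57.6%, 100%, 70.4%, 100%, 70.3% and 75.3% of its window in WT rescue, KO and K116A rescue ESC (replicates 1 and 2 of each), and over 100% in all 6 EB libraries. Sox14 had between 79.8% and 93.3% in ESC other than WT rescue replicate 1, at 10.1%, and between 82.5% and 100% in EB. Sox17 ranged from 26.2% to 90.4% in ESC and from 88.3% to 93.1% in EB. Sox21 ranged from 0% to 85.3% in ESC and from 55.4% to 93.6% in EB. The lowest value of each of these 4 genes was that of WT rescue ESC replicate 1.

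Sox3, Sox10 and Sox8 had the least. Sox10 was covered over 0% to 40.6% of its window in ESC and 5.9% to 35.3% in EB, and Sox8 over 0% to 26.4% and 11.3% to 38.9%. Sox3 had a score of 3100 for both antibodies in E14, and yet no H3K27me3 peak was listed in the 3 replicate 1 libraries of ESC, and the cover in the other 9 libraries was between 5.57% and 58.2%. The ESC and EB ranges of these 3 genes overlapped.

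**Figure D2:**
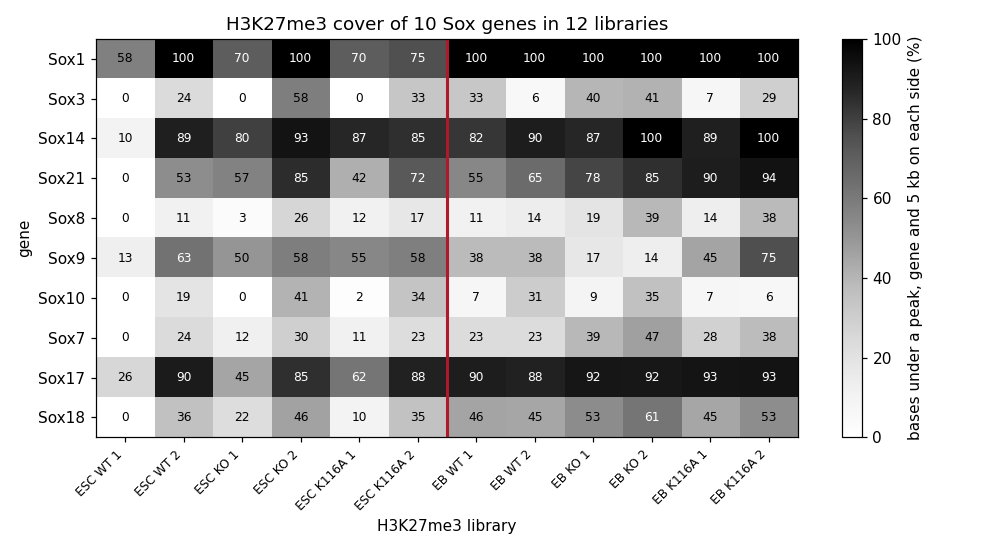
Share of each Sox gene and its 5 kb flanks (for Sox1, of the 5 kb on each side of its start alone) under H3K27me3 peaks, in %, as the number and shade of each cell; rows are genes, columns are the 12 libraries (2 replicates per group), and the red line divides ESC from EB. Sox1 is at 100% in all EB libraries, WT rescue ESC replicate 1 is at 0% for 6 of the 10 genes, and Sox9 in KO EB is at 17.1% and 13.5%.

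The comparison of EB with ESC asked where H3K27me3 moved on differentiation, in each line. The level of a gene was the mean H3K27me3 peak score per base of its window, with bases outside peaks counted as 0, and was compared as log2(level + 1) in limma over 8031 genes. None of the 10 genes passed an adjusted p of 0.05 in any line, although Sox9 in KO passed under some other settings, given with its values. Over all genes tested the share that passed was 0.0623% in the WT rescue, 24.5% in KO and 2.99% in the K116A rescue. At an unadjusted p under 0.05 the number of Sox genes was 0 in the WT rescue, 1 in KO (Sox9) and 0 in the K116A rescue, against 5.54%, 33.3% and 14.7% of all genes tested. In simulated data for the WT rescue comparison, 20% of genes shifted by 2 on the log2 scale were recovered, and 61% of those shifted by 4. The other comparisons were not simulated.

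The differences of the 10 genes had a median of 1.48 (log2) in the WT rescue, 1.52 in KO and 1.67 in the K116A rescue, against 0.15, 0.90 and 0.44 over all genes tested. In each line 9 of the 10 were above 0. For the WT rescue this rested on ESC replicate 1: without that library the median of the Sox genes was -0.22, with 3 of 10 above 0, and that of all genes was 0. The values also depended on the scale between libraries. With each library divided by its mean over the genes tested, an alternative added after the data were seen, the medians of the Sox genes were 1.42, 0.28 and 0.41, and those of all genes were 0.02, 0.30 and 0.00. The number of Sox genes above 0 was then 7, 6 and 7. The share of all genes above 0 was not counted on either scale. A gene was tested with a peak in any 2 of the 12 libraries, so the medians of all genes can include genes without a peak in a given line.

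Sox18 and Sox7 had higher levels in EB under both scales in KO and in the K116A rescue. Neither gene passed in limma, and the share of all genes higher under both scales together was not counted. At Sox18 the level was 0 and 27.8 in WT rescue ESC, 11.5 and 52.3 in KO ESC, and 5.27 and 22.1 in K116A rescue ESC. In EB it was 42.3 and 37.6, 62.5 and 112.9, and 60.8 and 109.0. No EB value of a line overlapped the ESC values of the same line. At Sox7 the ESC values were 6.73 and 26.0 in KO and 5.48 and 14.7 in the K116A rescue, and the EB values were 31.8 and 56.0 and 23.6 and 56.0. The WT rescue values of Sox7 overlapped, at 0 and 17.0 in ESC and 16.4 and 13.01 in EB.

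Counted over the genes, both EB libraries were higher than both ESC libraries at 2 Sox genes in the WT rescue (Sox21 and Sox18, against 18.6% of all genes tested). The count was 4 in KO (Sox1, Sox14, Sox7 and Sox18, against 45.3%) and 7 in the K116A rescue (all but Sox3, Sox9 and Sox10, against 37.8%). With the libraries scaled to the same mean these counts were 4, 2 and 4, and the shares of all genes were 22.3%, 43.1% and 25.3%. Both WT rescue EB libraries were lower than ESC replicate 2 alone at 5 Sox genes (Sox1, Sox14, Sox9, Sox7 and Sox17) and at 39.4% of all genes. The 4 of 10 in KO was near the share of all genes.

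Sox9 had lower values in EB than in ESC in the knockout. Its level in KO ESC was 33.0 and 84.0 in replicates 1 and 2, and in KO EB 7.35 and 6.07. In the WT rescue it was 6.25 and 65.2 in ESC and 20.1 and 20.3 in EB. In the K116A rescue it was 31.4 and 55.0 in ESC and 40.5 and 89.8 in EB. The KO groups did not overlap, and the groups of the other two lines did. On the levels as listed, Sox9 was the only one of the 10 genes at which both EB libraries were lower than both ESC libraries in KO, a pattern seen at 4.96% of the genes tested. No Sox gene showed it in the WT rescue (0.224%) or in the K116A rescue (6.03%). With the libraries scaled to the same mean, 3 Sox genes showed it in KO (Sox21, Sox9 and Sox17, against 16.0% of all genes), 2 in the WT rescue (Sox9 and Sox17, against 3.72%) and 1 in the K116A rescue (Sox9, against 18.7%).

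The difference between EB and ESC at Sox9 was -2.81 ± 1.12 (log2, SE, n = 2 libraries per group) in KO, with an adjusted p of 0.106 in limma. The difference was below 0 under all 21 alternative settings. Its value could not change without a library of another line, without the filter on low values or with the replicate block. It passed with the replicate block, median-centred, with scaled libraries and with scores of at least 50 (lowest adjusted p 2.46e-04 in limma). It did not pass with the other pseudocount, without the filter, for the share covered or around the gene start (adjusted p 0.129 to 0.144 in limma). The difference was -0.05 ± 1.12 in the WT rescue and 0.53 ± 1.12 in the K116A rescue, with adjusted p of 1 and 0.897 in limma. The change in KO differed from that in the WT rescue by -2.76 (95% confidence interval -6.31 to 0.79, adjusted p 0.499 in limma). Without WT rescue ESC replicate 1, the difference in KO is the same by construction, as it uses the KO libraries alone. That in the WT rescue was then -1.64, and the 2 changes differed by -1.16. No Sox gene passed in this comparison of changes, where 7.32% of all genes did for KO and 0.187% for the K116A rescue. In order of level among the 10 genes, Sox9 was 4th and 5th in the KO ESC libraries and 10th in both KO EB libraries, below Sox10.

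With the libraries scaled to the same mean, the 6 ESC values of Sox9 drew together, from 60.7 to 101, and lay above all 6 EB values. The scaling raised WT rescue ESC replicate 1 the most, as its mean was 0.576 against 2.46 to 16.1 in the other libraries. It took Sox9 in that library from 6.25 to 81.7. The scaled comparison was not run without that library. The EB values were then 26.0 and 27.1 in the WT rescue, 5.89 and 2.83 in KO and 33.8 and 45.6 in the K116A rescue. On this scale the difference in KO was -3.95 ± 0.41 (adjusted p 2.46e-04 in limma) and the change in KO differed from that in the WT rescue by -2.46 ± 0.58 (adjusted p 0.0331). The differences in the WT rescue, -1.49, and in the K116A rescue, -0.95, did not pass, with adjusted p of 0.115 and 0.268 in limma. The sign for the K116A rescue was thus opposite to that without scaling.

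**Figure D3:**
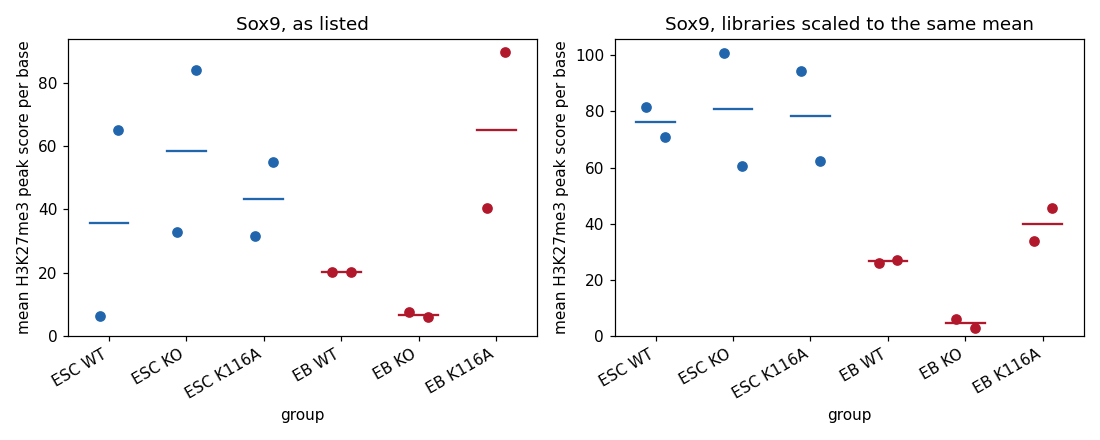
H3K27me3 level of Sox9 (mean peak score per base of the gene and its 5 kb flanks) in the 6 groups, as listed (left) and with libraries scaled to the same mean (right); each point is 1 library, the line is the mean of 2, ESC are blue and EB red. KO EB is at 7.35 and 6.07 on the left, where 1 WT rescue ESC library is at 6.25, and is below all other libraries on the right.

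The positions of the peaks at Sox9 were also read, without their scores. In 5 of the 6 ESC libraries 1 H3K27me3 peak of 7.81 to 9.75 kb ran across the Sox9 start, over nearly the same bases as the Jarid2 peak of E14. The exception was WT rescue ESC replicate 1, whose single peak of 1.95 kb lay 2.41 kb downstream. In all 6 EB libraries the domain was broken. The first piece ended 0.46 to 1.29 kb upstream of the start in 5 of them, and the next began 0.69 to 3.22 kb downstream. In the sixth, WT rescue EB replicate 1, the first piece ran to 0.37 kb past the start and the break followed.

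The width of the break differed among the lines. It measured 3.54 and 4.21 kb in KO EB, 1.78 and 2.04 kb in WT rescue EB and 1.42 and 1.71 kb in K116A rescue EB. In KO EB the remains on each side were also small, 0.36 and 2.3 kb in replicate 1 and 0.88 and 1.22 kb in replicate 2. In K116A rescue EB replicate 2 the downstream piece was 10.1 kb and reached farther than in any ESC library. No test was made of these widths. KO EB had the most peaks in the genome of all groups and the widest break at Sox9, and the part of library yield in the break was not tested. Over all genes with H3K27me3 within 3 kb on both sides of the start, the start itself was free of the mark in 11.3% to 20.0% of them in EB libraries and in 13.9% to 60.7% in ESC libraries. This count differs from the break described at Sox9. It leaves out Sox9 in KO EB replicate 2, whose next piece began 3.22 kb downstream, and in WT rescue EB replicate 1, whose start was covered.

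Sox1 had the opposite pattern. Its start was under H3K27me3 in 2 of 6 ESC libraries and in all 6 EB libraries. In the other 4 ESC libraries, the 3 of replicate 1 and K116A rescue replicate 2, a peak of 12.46 to 14.35 kb ended upstream of the start and a second one began 2.03 to 2.36 kb downstream. In EB a single peak of 24.62 to 28.39 kb ran through. The gap in ESC was found mainly in libraries with few peaks, and the part of library yield in it was not tested.

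**Figure D4:**
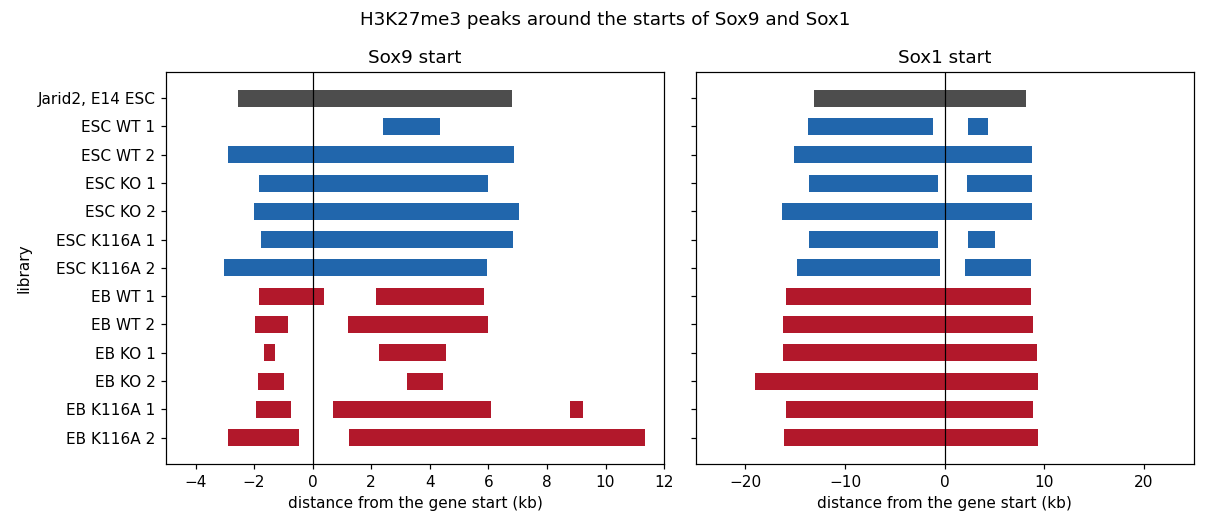
H3K27me3 peaks around the starts of Sox9 (left) and Sox1 (right) in the 12 libraries, ESC blue and EB red, with the Jarid2 peak of E14 ESC in grey; the x axis is the distance from the gene start in kb and each bar is 1 peak. The Sox9 domain is whole in 5 of 6 ESC libraries and broken in 6 of 6 EB libraries, and the Sox1 domain is whole in 6 of 6 EB libraries.

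The Sox17 and Sox18 starts were covered in 4 of 6 ESC and 6 of 6 EB libraries, and those of Sox14 and Sox7 in 5 and 6. The Sox21 start was covered in 1 of 6 ESC and 4 of 6 EB libraries, the latter being those of KO and of the K116A rescue. Sox10 had 3 and 1, Sox3 had 2 and 2, and Sox8 had 1 and 1. Sox9 had the largest decrease of the 10 genes, from 5 to 1. The share of all genes with such changes was not counted, and the part of library yield in these counts was not tested.

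Within ESC, the lines were compared to see whether H3K27me3 at these genes differed with the form of Jarid2. No Sox gene passed in limma for KO against the WT rescue (0% of all genes) or for the K116A rescue against the WT rescue (0.0125%). At an unadjusted p under 0.05 there was 1 Sox gene for KO (Sox21, against 0.249% of all genes) and 0 for the K116A rescue (against 0.473%). The median difference of the 10 genes was 1.37 (log2) for KO and 1.06 for the K116A rescue, and without WT rescue ESC replicate 1 it was -0.31 and -0.81, so that the direction rested on that library. Sox21, for example, was at 0 and 37.9 in WT rescue ESC, 40.8 and 114.6 in KO and 25.5 and 60.1 in the K116A rescue.

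Among the other Sox genes, 9 of 10 lie on the chromosomes used, and 6 of these (Sox4, Sox5, Sox6, Sox11, Sox13 and Sox30) had peaks of both antibodies. Sox6 had a score of 3100 for both antibodies, a Jarid2 peak of 10.71 kb and H3K27me3 within 5 kb in all 12 libraries. The mark lay within 1 kb of the Sox6 start in 5 ESC and 6 EB libraries. Sox11, a group C factor of neurons, also matched the lineage genes in its Jarid2 peak (3100 for both antibodies, 6.62 kb). It had no H3K27me3 peak in any of the 12 libraries. Sox2, a pluripotency factor of group B1 like Sox1 and Sox3, had no peak of either antibody, and H3K27me3 lay within 5 kb of it only in KO EB, over 4.86% and 29.9% of its window.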

How the data were processed

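Jarid2 and Jarid2-K116me2 ChIP-seq (1 sample each) and H3K27me3 ChIP-seq (12 libraries) were used; 2 input samples had no peak list. The authors mapped reads to mm9 with Bowtie2 2.1.0, removed duplicates, and called peaks per sample against input with MACS 1.4.2 (Jarid2, kept at an FDR of 0.15%) or MACS2 2.0.10 in broad mode (H3K27me3). The deposited files hold positions and a score. For Jarid2 it is -10 times the log10 of p, and for H3K27me3 its scale is not given in the sources used here. Fold enrichments, q-values and read numbers were not in the lists used here, so the planned weighting by fold enrichment was replaced by the score. No confidence interval for counting error could be given. The replicates are described as independent biological samples.

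Peaks were assigned to GENCODE genes (NCBIM37, chromosomes 1 to 19 and X) extended by 5 kb. Genes with an H3K27me3 peak in at least 2 of 12 libraries were tested in limma 3.58.1 (R 4.3.3) on log2(level + 1), with 6 group means, a trended prior and Benjamini-Hochberg adjustment. A fold change on this scale understates that of low genes. Tables and plots were made in Python 3.11.15 (pandas 2.3.3, numpy 2.4.6, matplotlib 3.10.9), and the fit was tested on simulated data. Sequences came from the mm9 genome (the bases upstream of Sox10 are not reported here), and 4 of the 10 genes matched a RefSeq promoter entry. The 10 genes, the other Sox genes and the pluripotency genes were chosen with earlier results of these data known. All 10 members were named, and beyond them the genes of those lists.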

Additional observations from a re-analysis of the deposited data

How the results depend on the processing

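The 7 H3K27me3 comparisons were recomputed with other pseudocounts, filters, windows, scalings and thresholds and without each library. No Sox gene passed in 5 of them under any setting. In KO, EB against ESC, 1 gene (Sox9) passed with the replicate block, with median-centred libraries, with libraries scaled to the same mean (also with the replicate block), with peaks of a score of at least 50, and without WT rescue ESC replicate 1 or 2. The leave-out range was 0 to 1. In KO against the WT rescue, Sox9 passed with scaled libraries, with and without the block (1 gene each). The difference of Sox9 in KO was -2.81 with the replicate block (adjusted p 0.0347 in limma), -4.01 median-centred and -5.75 with scores of at least 50. Leaving out a library of another line cannot change this difference, only the spread that the groups share. The scaling, the block with scaling and the score limit were chosen after seeing the data. The labels tie same-numbered libraries by nothing but the number. Over 15 pairs of groups, the differences between replicates 2 and 1 correlated at 0.62 to 0.65 among the 3 ESC groups and at -0.0205 to 0.22 in the other 12 pairs, with 7 of 15 above 0.1.

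The sign of Sox9 was unstable where its difference was small. In the WT rescue (-0.05) it was 1.38 with scores of at least 50, 0.27 percentage points for the share covered, and from -1.64 without ESC replicate 1 to 1.55 without ESC replicate 2. In the K116A rescue (0.53) it was -0.0821 median-centred, -0.95 with scaled libraries with or without the block, and from -0.0387 without EB replicate 2 to 1.09 without EB replicate 1.

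Over all genes the calls in KO, EB against ESC, ranged from 844 to 2740 against 1971, and those in KO against the WT rescue from 12 to 855 against 588. For the WT rescue they ranged from 0 to 350 against 5, for the K116A rescue from 168 to 613 against 240, and for the K116A rescue against the WT rescue from 0 to 127 against 15. Leaving out 1 library at a time gave 1344 to 2191, 237 to 1330, 0 to 57, 1 to 442 and 0 to 142 in the same order. Within ESC, KO against the WT rescue gave 0 calls under every setting but 1, with 73 without KO ESC replicate 1, and the K116A rescue against the WT rescue gave 0 to 9 against 1. A peak of each antibody stayed at 8 to 10 of the Sox genes under every definition. A limit on q-values was not run.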
